A study of Brassica rapa with 6 samples.

Results

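Rubisco, the enzyme that fixes CO2 in the Calvin cycle of chloroplasts, is built from large chains and small chains. The large chain is encoded in the plastid genome, whereas the small chain is encoded by a family of nuclear genes, made in the cytosol with a transit peptide, imported into the chloroplast and assembled there with the large chain. In Arabidopsis thaliana the small chain genes fall into an A type and a B type, and they are known as light-induced genes of green tissue whose members are used to different degrees between organs and conditions.

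The small chain family was followed in Chinese cabbage (Brassica rapa). Its members were the genes whose annotated transcript has the words ribulose bisphosphate carboxylase small chain in its description. The rule uses no measured value, though it was chosen with earlier results of these data known. The rule found 6 of the 45517 genes with a gene value. They were BraA04g010950.3C (small chain F1) and BraA04g010970.3C (small chain) on chromosome A04, BraA07g019510.3C (F1-like) on A07, and BraA02g017390.3C (1B-like), BraA02g017400.3C (1A-like) and BraA02g017420.3C (1B-like) on A02. Another 2 genes share the KEGG orthology K01602, the small chain entry, but carry other names in the table: BraA04g011050.3C is described only as ribulose 1,5-bisphosphate carboxylase/oxygenase, and BraA04g014860.3C as a virus-resistance protein. They are not members by the rule, were noticed after the table was seen, and are given beside the family because the first of them was the most abundant small chain gene of the series.

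The groups were leaf and petiole, the stalk and midrib of the leaf, each with 3 libraries of wild type plants grown in a greenhouse. Total RNA was depleted of ribosomal RNA and made into strand-specific libraries. The labels give no age and do not say that the libraries of a tissue came from separate plants, so p-values measure the spread between these libraries, which may be technical. In such bulk RNA, fewer cells of a type and less RNA per cell cannot be told apart.

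A library held 111518411 to 132861243 estimated counts in all linear transcripts. Of these, 68073160 to 72716761 in leaf and 92622142 to 104023132 in petiole lay in gene values. A gene value adds up the sense transcripts filed under a gene, both the annotated one and assembled ones that share its junctions or fall inside it. Levels are given as CPM, the count relative to all gene-value counts of the library after TMM scaling between libraries. The annotated transcripts of all 6 members have 3 exons and a coding length of 546 bases, so their CPM can also be compared with each other per length. An exception is BraA04g010950.3C in leaf, whose gene value includes joined transcripts of 815 and 754 bases that also span its neighbour. Petiole was tested against leaf with edgeR's quasi-likelihood test for each gene whose counts averaged 10 or more across the libraries, and genes were called at a Benjamini-Hochberg adjusted p below 0.05 over all 27984 tested genes.

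The small chain genes were abundant in leaf and low in petiole. Their summed level was 2594, 2734 and 2494 CPM in the leaf libraries and 14.1, 15.2 and 15.9 CPM in the petiole libraries. The means were 2607 ± 121 CPM and 15.1 ± 0.927 CPM (SD, n = 3 each), a ratio of 173, and the tissues lay far outside each other's spread. As a share of all counts in gene values, the family took 0.262% ± 0.0138 in leaf and 0.00150% ± 8.69e-05 in petiole (SD, n = 3 each). No p is given for the sum.

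Of the 6 members, 4 passed the filter on low counts. All 4 were called lower in petiole and 0 higher, where 31% of all tested genes were called lower, 31.4% higher and 62.4% in either direction. Among them, BraA02g017420.3C had 0 counts in every petiole library and passed the filter through its leaf counts alone. It could therefore only be called lower. A further 2 members, both on A02, were near 0 in both tissues and were not tested. The 4 tested members had no overlap between the tissues, which was also true, with petiole below leaf, of 35.3% of all tested genes.

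The most abundant member was BraA04g010950.3C, the F1 small chain gene (chromosome A04, 8654619 to 8655432, plus strand). Its level was 1833, 1509 and 1753 CPM in leaf and 9.53, 9.67 and 10.1 CPM in petiole, including the joined transcripts described further on. The leaf libraries were close to each other and all lay far above the petiole libraries. The fitted change was -7.44 (log2, petiole minus leaf, SE 0.09), a 174-fold lower level in petiole, with an edgeR adjusted p of 1.81e-09. By FPKM, this gene ranked 11 to 12 among the 45517 genes in the leaf libraries and 8046 to 8496 in the petiole libraries.

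BraA04g010970.3C, the neighbouring small chain gene on A04 (8662800 to 8663601, plus strand), stood at 426, 880 and 436 CPM in leaf. It stood at 4.32, 5.21 and 5.54 CPM in petiole. The second leaf library was well above the others, while the petiole libraries were close to each other. In the other leaf libraries, joined transcripts that span this gene and BraA04g010950.3C were counted under BraA04g010950.3C alone. The fitted change was -6.85 (log2, SE 0.35), 116-fold lower in petiole, with an edgeR adjusted p of 1.12e-06.

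BraA07g019510.3C, the F1-like gene on A07 (16449761 to 16450565, minus strand), stood at 326, 336 and 292 CPM in leaf and at 0.211, 0.173 and 0.228 CPM in petiole. The petiole levels rest on 22, 17 and 21 estimated counts, against 22599, 24537 and 20542 in leaf. It showed the lowest petiole level relative to leaf among the 3 members that had counts in all libraries. The fitted change was -10.59 (log2, SE 0.11), a 1546-fold lower level in petiole, with an edgeR adjusted p of 1.47e-09. In leaf it ranked 75 to 95 by FPKM among all genes, whereas in petiole it ranked 25217 to 25809.

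The A02 genes lie in a row on the minus strand, with gaps of 2298 and 11418 bases between neighbours, and were the weakest of the family. BraA02g017420.3C, a 1B-like gene (9539167 to 9540001), had 651, 714 and 870 counts in leaf, or 9.38, 9.77 and 12.4 CPM, and 0 in every petiole library. Set against 3 counts over the 3 petiole libraries (0.0102 CPM), it was at least 1030-fold lower in petiole, a bound that covers counting error only (edgeR adjusted p 2.32e-06). BraA02g017400.3C, the 1A-like gene (9526925 to 9527748), had counts of 0, 0 and 23 in leaf and 0, 8 and 0 in petiole. BraA02g017390.3C, another 1B-like gene (9523804 to 9524626), had 0 in every leaf library and 0, 8 and 0 in petiole. The last 2 members overlapped between the tissues, and no fold is given for them.

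The members described as 1A-like or 1B-like were thus the low ones, and the F1 and F1-like genes were among the high ones. In order of leaf level the members were BraA04g010950.3C, BraA04g010970.3C, BraA07g019510.3C and BraA02g017420.3C. BraA04g010970.3C and BraA07g019510.3C, next to each other in that order, had ranges in leaf that did not overlap, at 426 to 880 and 292 to 336 CPM, but their means differed by about 1 SD of the former (580 ± 259 against 318 ± 22.9 CPM, SD, n = 3). The leaf level of BraA04g010970.3C leaves out the joined transcripts, which are counted under BraA04g010950.3C. Small chain genes are close copies of each other in plants, and how reads that fit several copies were counted is not given in the sources used here, so the split among members is less certain than their sum.

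**Figure D1:**
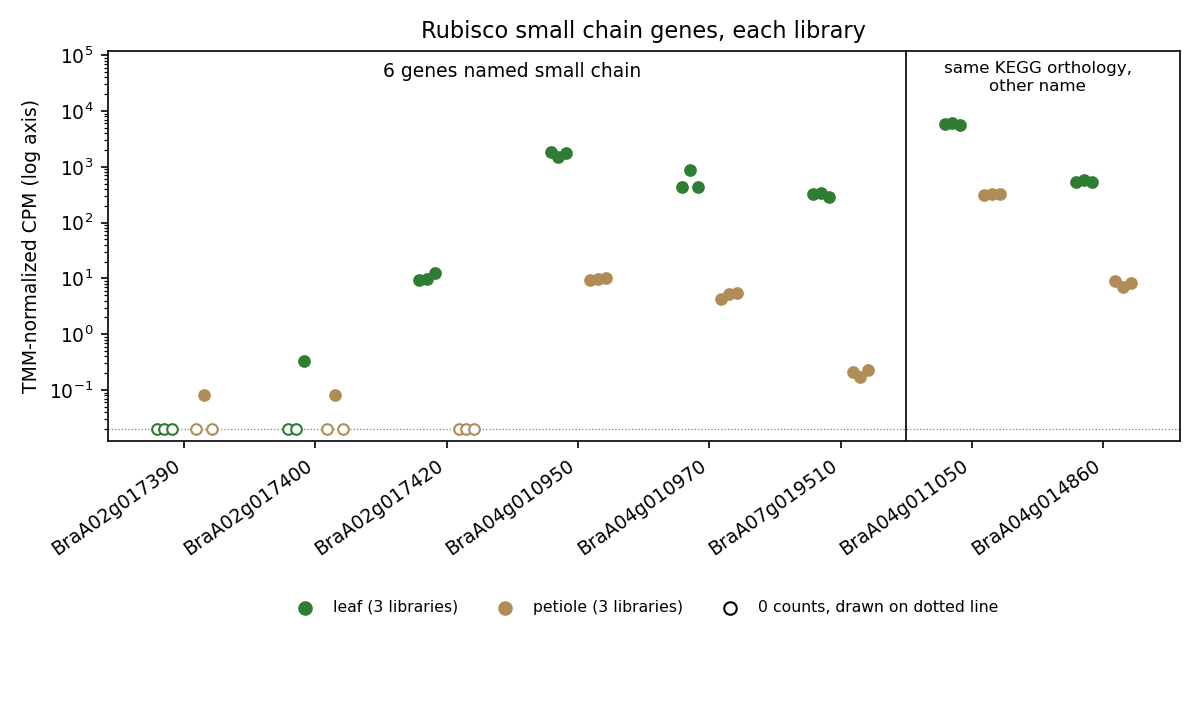
TMM-normalized CPM (log axis) of each small chain gene in the 3 leaf libraries (green) and 3 petiole libraries (brown), with the 6 members on the left of the line and the 2 other genes of the same KEGG orthology on the right. Open points on the dotted line had 0 counts; the 4 tested members and both other genes had every petiole point below every leaf point.

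The make-up of the family differed between tissues. BraA07g019510.3C gave 12.5%, 12.3% and 11.7% of the counts of the 6 members in leaf and 1.50%, 1.14% and 1.44% in petiole. The means were 12.2% ± 0.428 and 1.36% ± 0.194 (SD, n = 3 each), a difference far beyond the spread. BraA04g010950.3C gave 65.4% ± 8.84 in leaf and 65.0% ± 2.41 in petiole (SD, n = 3 each), a difference smaller than the spread between libraries. The share of BraA04g010970.3C was 16.4%, 32.2% and 17.5% in leaf and 30.7%, 34.2% and 34.9% in petiole, so the tissues overlapped. The leaf shares of both A04 members depend on joined transcripts, described further on, that are counted under BraA04g010950.3C. With these added to BraA04g010970.3C instead, its leaf counts were 71155, 64284 and 64335, against 29570, 64284 and 30646 without them. BraA02g017420.3C gave 0.405% ± 0.0789 in leaf and 0 in petiole. These shares are descriptions, and no test of a difference between members was made.

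With the 2 other genes of the orthology, the picture of small chain RNA in petiole changed in size but not in direction. BraA04g011050.3C (A04, 8697106 to 8697910, minus strand), 33504 bases beyond the A04 pair, had a level of 5904 ± 262 CPM in leaf and 321 ± 2.81 CPM in petiole (SD, n = 3 each). Its fitted change was -4.20 (log2, SE 0.04), 18.4-fold lower in petiole. It ranked 3 among all genes by FPKM in every leaf library and 78 to 83 in the petiole libraries, so it stayed among the abundant RNAs of petiole while the members did not. BraA04g014860.3C (A04, 11439356 to 11440144, minus strand) had 550 ± 20.5 CPM in leaf and 8.08 ± 1.05 CPM in petiole, 68.0-fold lower. All 8 genes together had 9061 ± 393 CPM in leaf and 345 ± 3.09 CPM in petiole (SD, n = 3 each), a ratio of 26.3, compared with 173 for the 6 members.

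The members' share of these 8 genes' counts was 28.6%, 28.9% and 28.8% in the leaf libraries and 4.12%, 4.41% and 4.57% in the petiole libraries. That of BraA04g011050.3C was 65.2% ± 0.350 in leaf and 93.3% ± 0.258 in petiole (SD, n = 3 each). The same gene thus gave most of the small chain counts in both tissues, and the rest had a larger share in leaf. For every 100 counts of BraA04g011050.3C, BraA07g019510.3C had 5.38 ± 0.159 in leaf and 0.0636 ± 0.00877 in petiole, and BraA04g010950.3C had 28.9 ± 3.71 and 3.04 ± 0.0768 (SD, n = 3 each).

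**Figure D2:**
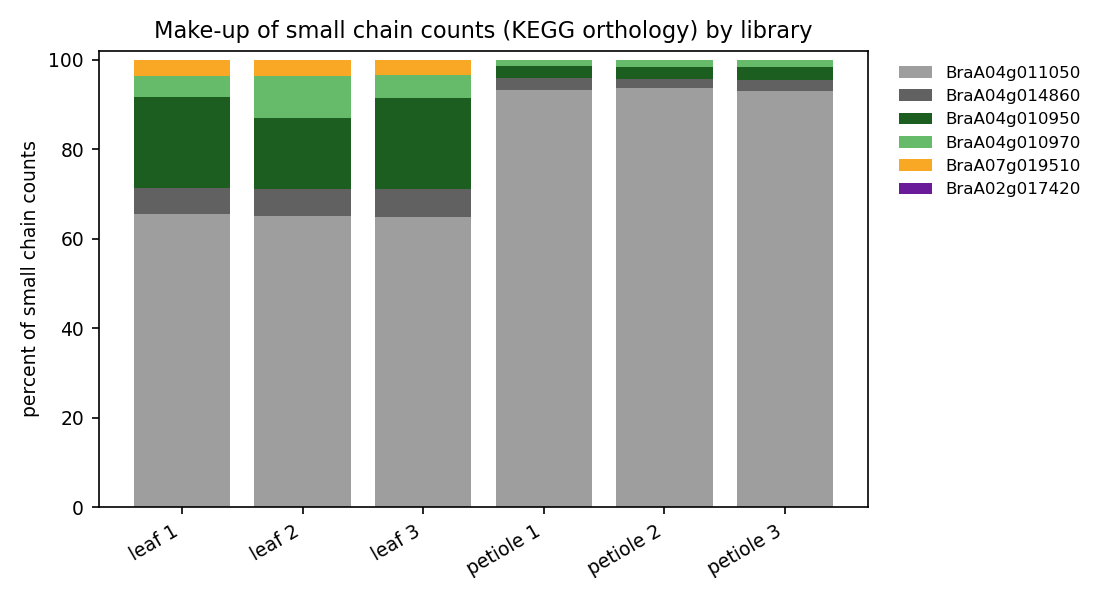
Percent of the estimated counts of the 8 genes with the small chain KEGG orthology that each gene gave, by library (stacked bars from 0). The grey segment of BraA04g011050, which is no member, takes 65.2% on average in leaf and 93.3% in petiole, and the yellow segment of BraA07g019510 is visible in leaf and not in petiole.

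The A04 members also shared assembled transcripts. Besides the annotated transcripts, the deposited table holds 2 transcripts of 6 exons each, with lengths of 815 and 754 bases, that run from the start of BraA04g010950.3C to the end of BraA04g010970.3C across the 7367 bases between them and are filed under the first gene. One of these joined transcripts had 41585 counts in the first leaf library and 0 in all others. The other had 33689 counts in the third leaf library and 0 in all others. Joined transcripts made up 26.5%, 0% and 21.9% of the pair's sense counts in the leaf libraries and 0% in petiole.

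The level of BraA04g010970.3C was high in the leaf library that lacked them. Its annotated transcript had 29570, 64284 and 30646 counts in leaf, an SD of 47.6% of the mean. With the joined transcripts added to it, the SD was 5.94% of the mean. The pair as a whole had 156826, 174517 and 153964 counts in leaf and 1440, 1459 and 1441 in petiole, with an SD of 6.88% of the mean in leaf. The sum of the pair therefore varied less between leaf libraries than the annotated transcript of either gene, whose SD was 13.9% of the mean for BraA04g010950.3C. Whether RNA that joins both genes exists in the cells was not tested.

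**Figure D3:**
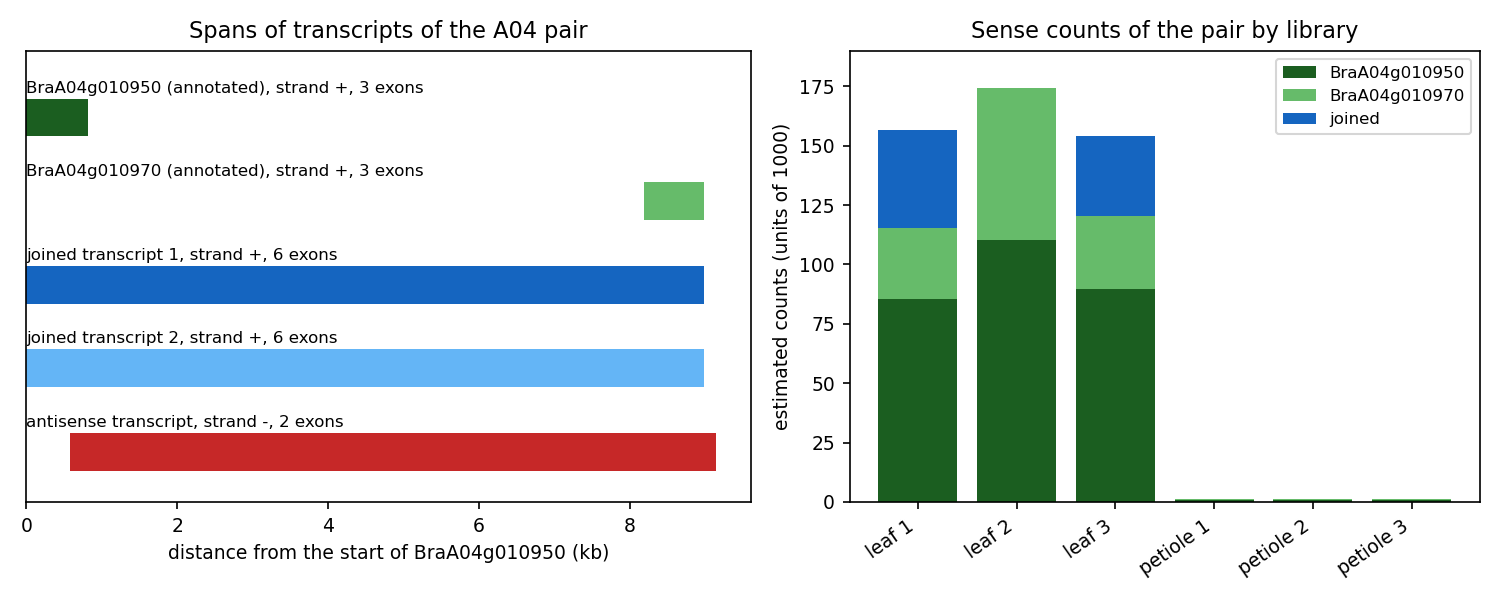
Left, spans of the transcripts of the A04 pair, drawn to scale as distance from the start of BraA04g010950 in kb, without their exons. Right, sense estimated counts of the pair (axis in units of 1000) by library as stacked bars, with blue for the joined transcripts, which appear in leaf libraries 1 and 3 and not in leaf library 2 or in petiole.

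In the test of single transcripts over the whole isoform table, 6 of the family's 8 sense transcripts passed the filter. The annotated transcripts of the 4 tested members were called lower in petiole and 0 transcripts higher, where 14.1% of the 52982 tested transcripts were called lower, 15.4% higher and 29.5% in either direction. That of BraA02g017420.3C again passed the filter through its leaf counts alone. The 2 joined transcripts were not called (edgeR adjusted p 0.219 and 0.22), each being present in a single library. With the replicate number as a block, they were called (edgeR adjusted p 0.0232 and 0.0249), and the transcript of BraA02g017420.3C was not (edgeR adjusted p 0.0594).

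Transcripts classed as lying opposite a small chain gene were listed at 3 of the small chain loci and are not part of the gene values. The A04 pair had one of 2 exons and 509 bases on the minus strand (8655195 to 8663762), which overlaps both genes. It had 10117, 9177 and 10734 counts in leaf and 47, 0 and 9 in petiole. In leaf this was 6.45%, 5.26% and 6.97% of the sense counts of the pair, and in petiole 3.26%, 0% and 0.625%. It was called lower in petiole (log2 -9.51, SE 1.52, edgeR adjusted p 0.00747 over all transcripts). On A07, a plus-strand transcript filed as a sense transcript of BraA07g019700.3C also spans BraA07g019510.3C (16417422 to 16549069). That transcript had 111, 62 and 187 counts in leaf and 3, 119 and 8 in petiole. It was not called (log2 -1.88, edgeR adjusted p 0.391), but was without petiole replicate 2 (log2 -4.79, edgeR adjusted p 0.0327).

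The opposite strand of BraA04g011050.3C carried 27703, 37685 and 31903 counts in leaf and 1729, 2259 and 2145 in petiole. Relative to the gene's own counts this was 7.73% ± 0.900 in leaf and 6.52% ± 1.13 in petiole (SD, n = 3 each), and the libraries of the tissues overlapped. In the test of single transcripts, the opposite strand changed by -4.38 and the gene's own transcript by -4.14 on the log2 scale; their difference was not tested. The opposite strand of BraA04g014860.3C had 3771, 2108 and 1695 counts in leaf and 0 in petiole, or 6.55% ± 3.16 of its sense counts in leaf. Whether these counts come from RNA of the opposite strand or from sense RNA read in the wrong direction was not tested.

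The tested neighbours of the members did not fall to the same degree. BraA02g017410.3C, ABA DEFICIENT 4, a chloroplast protein needed for neoxanthin synthesis in Arabidopsis, lies between the A02 members and was not called (log2 -0.38). BraA04g010960.3C, an uncharacterized gene between the A04 members, was not called either (log2 -0.18). Beside the A04 pair, BraA04g010930.3C (log2 0.22) and BraA04g010940.3C (log2 0.35) were not called, and the nearest genes on the other side were not tested. Of the nearest tested genes outside the A02 row, mannose-6-phosphate isomerase 2 (BraA02g017380.3C) was lower in petiole (log2 -3.03) and midasin (BraA02g017440.3C) was lower (log2 -0.73). A cytokinin hydroxylase gene (BraA02g017430.3C), next to BraA02g017420.3C, was at 0 in leaf and at least 123-fold higher in petiole. On A07 the tested neighbours on one side fell by 0.84 and 0.27 on the log2 scale, and those on the other side were at 0.

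Most tested genes for partners of the small chain were lower in petiole as well. Over all tested genes, 31% were called lower and 31.4% higher, which is the background for this list and those below. Genes at 0 in every petiole library passed the filter through their leaf counts alone. Such genes could only be called lower, and they are included in the list counts. Rubisco activase, which frees Rubisco's active sites of tightly bound sugar phosphates, had 4 genes, all tested, of which 4 fell and 0 rose (median log2 -4.17, against 0.01 over all tested genes). The summed activase level was 2557 to 2694 CPM in leaf and 143 to 153 CPM in petiole. The most abundant activase gene, BraA04g027940.3C, fell from 1637 ± 37.4 to 84.6 ± 3.16 CPM (log2 -4.27, SE 0.04), and BraA05g006330.3C fell most (log2 -5.10, SE 0.17). These are smaller values than those of the 4 tested members and not smaller than that of BraA04g011050.3C (log2 -4.20), and the differences were not tested. The changes of BraA03g021010.3C and BraA07g037300.3C were -4.06 and -1.83 on the log2 scale.

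Of 14 tested genes named as Rubisco assembly factors or chloroplast chaperonins, 12 fell and 2 rose (median log2 -1.09), against 7 and 4 with limma on log2(FPKM + 1). Which of the chaperonins act on the large chain was not tested. Rubisco accumulation factor 1 (BraA06g034390.3C), an assembly chaperone of the large chain, fell from 73.8 ± 7.49 to 10.0 ± 1.11 CPM (log2 -2.88). Chaperonin 60 subunit beta 4 (BraA07g013020.3C) fell most (log2 -4.29). The beta 2 (BraA03g035940.3C, log2 1.47) and beta 3 (BraA03g012950.3C, log2 0.75) subunits rose, so the chaperonin genes did not all follow the small chain. When only exactly matching transcripts were counted, 9 genes of this list fell and 0 rose, so neither rise was called. Beta 3 then changed by 0.30 on the log2 scale (edgeR adjusted p 0.748).

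Among 6 genes named as enzymes that modify Rubisco or handle its inhibitors, 5 fell and 0 rose (median log2 -0.66). The largest fall was of a gene named as a large subunit N-methyltransferase (BraA09g045970.3C, log2 -6.63), followed by another of that name (BraA10g024750.3C, log2 -1.62). Whether their proteins act on Rubisco was not tested. With limma on log2(FPKM + 1), 2 fell and 3 rose, and with only exactly matching transcripts 3 fell and 0 rose. The list on transit peptide processing matched only 3 genes of presequence proteases, which break down cleaved transit peptides. Of these, BraA03g038780.3C (log2 -1.62) and BraA01g033860.3C (log2 -0.60) fell and BraA06g003670.3C rose (log2 0.62). Those values turned or were lost in other settings, as given in the closing section.

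The large chain itself could not be followed, since the description matched a single nuclear gene, BraA01g028300.3C, named as a partial plastid sequence. It had 1 count in each leaf library and 6559, 7323 and 1 in petiole, and was called higher (edgeR adjusted p 0.00588). With all transcripts filed under its name, its change was -2.50 and was not called, and its tissues overlapped, so no direction is given for it.

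The other enzymes of the Calvin cycle were lower in petiole with few exceptions. Of 32 tested genes, 28 fell and 1 rose, and the median change was -2.77 on the log2 scale. The summed level was 6028 to 6253 CPM in leaf and 1058 to 1081 CPM in petiole. Plastid fructose-bisphosphate aldolase 2 (BraA01g000200.3C) fell from 169 ± 5.64 to 0.275 ± 0.239 CPM (log2 -9.25, SE 0.51). Sedoheptulose-1,7-bisphosphatase (BraA04g004360.3C), which feeds the regeneration of the CO2 acceptor, fell by 7.22 on the log2 scale. Aldolase 3 (BraA02g034390.3C) was the one that rose (log2 0.52).

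Light harvesting proteins, which bind chlorophyll and gather light for the photosystems, had 28 tested genes, of which 27 fell and 0 rose (median log2 -3.67). Their summed level was 6790 to 7368 CPM in leaf and 610 to 658 CPM in petiole. BraA08g028350.3C, a chlorophyll a-b binding protein gene, was at 0 in petiole and at least 2210-fold lower than in leaf. It passed the filter through its leaf counts alone. BraA05g010690.3C fell by 6.15 on the log2 scale. The medians of both lists were smaller changes than that of each tested small chain member, while single genes of these lists reached the same size. No test of these differences was made.

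Factors that act on light-induced promoters were mixed. Of 23 tested genes, 13 fell and 4 rose (median log2 -0.31). The balance turned with limma on log2(FPKM + 1), where 7 fell and 15 rose and the median of all genes stood at 0.48, and with only exactly matching transcripts 6 fell and 1 rose. GLK1-like genes, whose Arabidopsis relatives activate nuclear genes of photosynthesis, were among those that fell. BraA07g000260.3C was at 0 in petiole and at least 449-fold lower, and passed the filter through its leaf counts alone. BraA09g056140.3C fell from 77.1 ± 2.23 to 4.35 ± 1.22 CPM (log2 -4.15, SE 0.19). HY5 (BraA10g026880.3C), a promoter of light responses, rose from 2.12 ± 0.419 to 8.04 ± 0.578 CPM (log2 1.93). PIF6-like (BraA07g024970.3C), of the phytochrome-interacting factors, rose as well (log2 1.28). Both rises kept their direction but were not called when only exactly matching transcripts were counted (edgeR adjusted p 0.783 and 0.191).

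**Figure D4:**
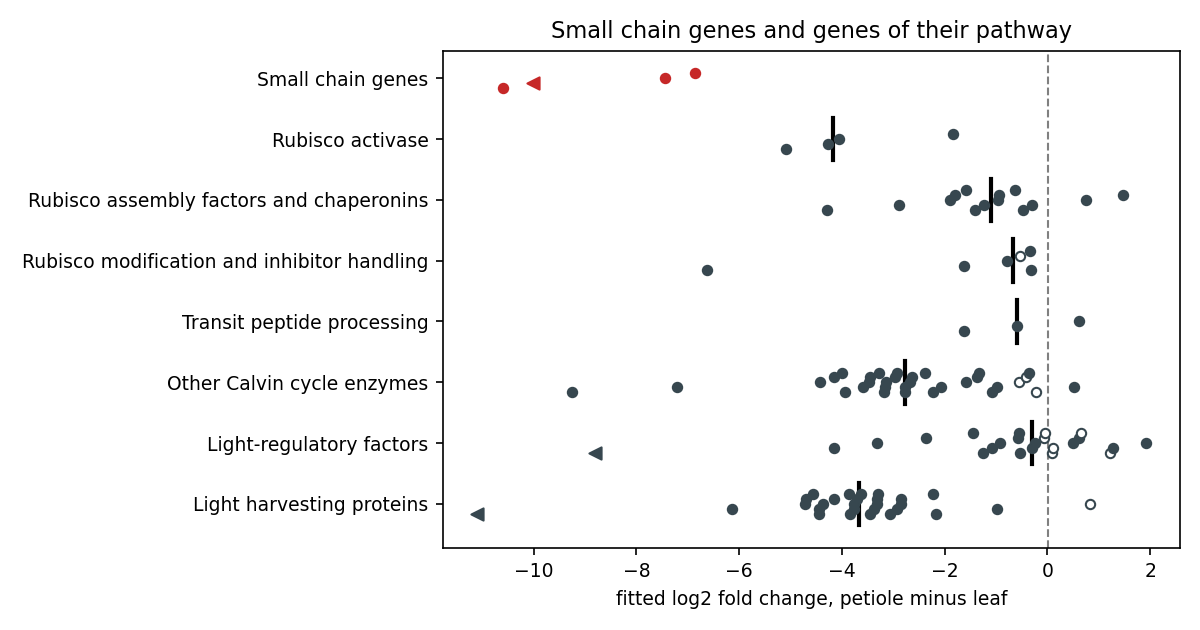
Fitted log2 fold change (petiole minus leaf) of the tested small chain members (red) and of tested genes in the pathway lists (grey), filled where called at adjusted p below 0.05. Triangles stand at the lower bound of genes with 0 counts in petiole, black ticks are list medians, and the dashed line is the median of all tested genes; the 4 members lie at -6.85 or lower.

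Markers of other cell types also differed between the tissues, where 31.4% of all tested genes were called higher in petiole and 31% lower. Listed at 0 in every library were 2 of 28 xylem, 8 of 36 phloem, 1 of 7 guard cell and 0 of 19 epidermis marker genes. Of 24 tested xylem marker genes, 19 rose and 1 fell in petiole, and their summed level was 313 to 319 CPM in leaf and 510 to 546 CPM in petiole. Those with the largest rises were IRX15-LIKE (BraA07g016740.3C, log2 4.14) and cellulose synthase A subunit 7 (BraA02g007030.3C, log2 2.69), and IRX7 (BraA04g020120.3C, log2 -2.03) fell. Of 23 tested phloem markers, 5 rose and 13 fell, and their sum was 1194 to 1201 CPM in leaf and 440 to 453 CPM in petiole. SWEET11 (BraA06g018300.3C), a sucrose exporter, fell by 3.95 on the log2 scale. SWEET12 (BraA09g006480.3C) was at 0 in petiole and passed the filter through its leaf counts alone. It was called lower, though not in edgeR with the replicate block or with limma (adjusted p 0.0573 and 0.0532). The phloem protein 2-like genes BraA09g021060.3C (log2 1.44) and BraA09g020890.3C (log2 3.62) rose.

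Of 5 tested guard cell markers, 3 fell, where 31% of all tested genes were called lower and 62.4% in either direction. The anion channel SLAC1 (BraA06g009180.3C) and EPIDERMAL PATTERNING FACTOR 1 (BraA09g055980.3C) were at 0 in every petiole library and passed the filter through their leaf counts alone. FAMA-like (BraA01g030050.3C) was lower (log2 -3.01), though not called with only exactly matching transcripts (edgeR adjusted p 0.161). KAT1 (BraA09g021740.3C) and KAT2 (BraA01g009770.3C) were not called, with log2 values of -0.45 and -0.02. The guard cell sum was 14.2 to 15.7 CPM in leaf and 3.21 to 4.43 CPM in petiole. Of 17 tested epidermis markers, 5 rose and 9 fell, with sums of 402 to 420 and 233 to 256 CPM. An example is the ECERIFERUM 3-like gene BraA03g012240.3C, at 0 in petiole, which passed the filter through its leaf counts alone. Another is protodermal factor 1-like (BraA05g003100.3C), which rose by 4.88 on the log2 scale. Its rise was not called with only exactly matching transcripts (log2 8.45, edgeR adjusted p 0.215). What part such differences in cell types have in the levels of the small chain genes was not tested.

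The genes whose pattern over the 6 libraries was most like that of the family's sum were sought among 10827 named genes with a mean of at least 10 CPM, by Euclidean distance on centred log2(CPM + 1) values. The closest, BraA03g042340.3C, is named as a serine-glyoxylate aminotransferase, an enzyme of the photorespiratory pathway that begins with Rubisco's oxygenase reaction, and its distance was 0.372. It stood at 571 ± 5.997 CPM in leaf and 2.45 ± 0.700 CPM in petiole (SD, n = 3 each). Then came peroxidase 47-like (BraA08g016620.3C, 0.521), aldolase 2 (BraA01g000200.3C, 0.565), pathogenesis-related protein 1-like (BraA03g042600.3C, 0.799) and ECERIFERUM 3-like (BraA03g012220.3C, 0.979), a gene of wax synthesis. With 6 libraries in 2 tissues, this likeness measures mostly the difference between leaf and petiole on the log2(CPM + 1) scale. The added 1 flattens petiole levels below 1 CPM, so genes with unlike folds can lie close. The fitted change of the closest gene was -7.87 on the log2 scale. Those of the genes after it were -10.41, -9.25, -9.83 and -9.80, in the order named, against -7.44 for the family's sum in CPM.

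The circular RNA table of the same libraries listed 886 circRNAs, closed RNA rings counted by reads across a back-spliced junction. None was assigned to a small chain gene as its host.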

How the data were processed

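The authors deposited a table of linear transcripts with an estimated count and an FPKM value per library, and a table of circRNAs with a count of back-spliced reads, per the file headers. The deposited estimated counts are whole numbers and were used unrounded. In the deposited FPKM columns, 0.0001 stands where the count is 0 and was set to 0. Per the submitters' processing notes, the tools were HISAT2, StringTie and TopHat, with no role or version stated. Neither the genome build nor the counting of reads that fit several copies is given in the sources used here. Coordinates are as in the files.

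A gene value is the sum of estimated counts over transcripts of class =, j or c under the gene's name. Opposite-strand (x) and unannotated (u) transcripts are left out. Genes and transcripts with a mean of at least 10 counts were tested with edgeR 4.0.16 (TMM, quasi-likelihood F test, Benjamini-Hochberg over the whole table, called below 0.05) in R 4.3.3. SE stands for the absolute log2 change divided by the square root of the F value of that test. Alternatives used DESeq2 1.42.0 and limma 3.58.1 on log2(FPKM + 1), with a pseudocount of 1. The scripts were tested on simulated data. Family sums and shares have no test. A fold against a tissue at 0 in all libraries is a lower bound against 3 counts over its 3 libraries. Counting floors cover counting error only.

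Lists of partners, pathway genes and markers were matched by words in the deposited descriptions. Members and lists were chosen with earlier results of these data known. Named were all members, up to 2 called falls and 2 called rises with the largest change from each list, every tested gene of a list with at most 5, and the 5 genes most like the family's sum. The 2 other genes of the KEGG orthology, the neighbours and the opposite-strand transcripts were added after the table was seen. No sequence of these genes was used here, so identity between copies and promoter motifs were not analysed.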

Additional observations from a re-analysis of the deposited data

Results flagged for a closer look

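Signals were listed at small chain loci outside the gene values of the report. The transcript on the opposite strand of the A04 pair reached 10734 estimated counts in its highest library, a leaf library. Those on the opposite strands of BraA04g011050.3C and BraA04g014860.3C reached 37685 and 3771 counts, both in leaf. An unannotated transcript of 2 exons on the plus strand between BraA02g017400.3C and BraA02g017420.3C (A02, 9533990 to 9534536) reached 99 counts. It had 72, 48 and 99 counts in leaf and 6, 0 and 34 in petiole and was not called (log2 -2.80, edgeR adjusted p 0.255).

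A circRNA typed as intergenic (A04, 8697294 to 8697921) overlaps BraA04g011050.3C and had 10 back-spliced reads in the third leaf library and 0 in the others. All these exceed the 3 counts that a count of 0 allows, and none was compared with a library known to lack them.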

How the results depend on the processing

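The calls of the 4 tested members and of both other genes of the orthology kept their direction and their side of the threshold in each of 14 alternatives: other scaling, no filter, DESeq2, limma on FPKM, other choices of transcripts, a replicate block, and each library left out in turn. The direction of BraA02g017420.3C was fixed in all of them, since it had 0 counts in petiole. The log2 change ranged from -7.52 to -6.48 for BraA04g010950.3C, from -7.04 to -5.81 for BraA04g010970.3C and from -10.67 to -7.54 for BraA07g019510.3C. For BraA02g017420.3C, at 0 in petiole, the fitted value depends on the added constant and ran from -12.92 to -3.11, the latter with limma on log2(FPKM + 1). The family's sum changed by -7.44 in CPM, by -6.62 in FPKM, by -7.22 with exactly matching transcripts, and by -4.72 with all 8 genes of the orthology, a choice made after seeing the data. The leaf share of BraA07g019510.3C (12.2%) was 12.7% by FPKM, 14.4% with exactly matching transcripts and 11.6% with all transcripts under the name.

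Over all genes, 8683 were called lower and 8787 higher, against 4257 and 16497 with limma on log2(FPKM + 1), where the median of all genes moved to 0.48 and 79.5% of calls were higher, compared with 50.3%. With exactly matching transcripts 4888 were lower and 5065 higher. Of the list genes, 9 were higher (markers left out), against 28 with limma and 3 with exactly matching transcripts. The cause of these shifts was not tested.

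Values that turned sign were those of BraA01g028300.3C with all transcripts under the name (-2.50), BraA03g038780.3C with exactly matching transcripts (1.01), BraA01g033860.3C with limma (0.14) and with exactly matching transcripts (0.0195), and, uncalled, BraA09g021740.3C with limma (0.0508) and BraA01g009770.3C with limma (0.29), under the replicate block (0.0533) and with single libraries left out (-0.31 to 0.35). The rise of BraA06g003670.3C was lost under the replicate block, with exactly matching transcripts and without leaf replicate 1 or 3 or petiole replicate 1 (log2 0.49 to 0.62), and that of BraA09g020890.3C with exactly matching transcripts (3.62) and without leaf replicate 1 or petiole replicate 3 (3.35 and 3.46). With limma 8 phloem markers were lower, and with exactly matching transcripts 3 phloem markers were higher, and 4 epidermis markers were lower and 3 higher.

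No pairing of the libraries by replicate number was seen: deviations of same-numbered libraries correlated at -0.00203 to 0.00562, and 0 of 6 libraries correlated best with their own number. These values cannot decide whether same-numbered libraries came from the same plants. With the replicate block, 8166 genes were lower and 8148 higher, 4 members and 5 family transcripts were lower, and 90 list genes were lower and 8 higher.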
